A study of Homo sapiens with 3 samples.

Results

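The genes that make cholesterol and fatty acids were followed in KMS11 cells, an established human multiple myeloma line with the t(4;14) translocation, after hairpins against MMSET (current symbol NSD2) had been delivered. The group was a list of 33 genes of sterol and fatty acid synthesis, of their control and of sterol export, each represented by its brightest probe set among those that carry 1 gene symbol. Values were obtained for 30 of the 33, out of 19775 genes with such a probe set. CYP51A1 and FADS1 lay only on probe sets that also carry another gene's symbol, and FDFT1 was not analysed here. All 30 were among the 13296 tested genes, meaning that their signal exceeded the array's median on at least 1 array. FADS2 passed this filter through the shMMSET#4 array alone, and TM7SF2 passed it through the hairpin arrays and not through shLuc.

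Cells of every group were grown in medium with fetal calf serum, infected with lentivirus in the presence of polybrene and collected at 48 h. The 3 groups held 1 array each. The control received shLuc, a hairpin against luciferase, and the others received shMMSET#2 or shMMSET#4, both directed at MMSET, the histone methyltransferase gene that the translocation places under immunoglobulin enhancers. The series title asks which transcription factors depend on MMSET. The lipid genes examined here are a further readout of the same arrays. There were no replicates, so every ratio describes these 3 arrays, no p-value was computed, and both ratios to shLuc share the same control array.

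Cells sense sterols in the membrane of the endoplasmic reticulum. When sterols are scarce, SCAP escorts the SREBP transcription factors, encoded by SREBF1 and SREBF2, to the Golgi, where proteases release their active part. When sterols are plentiful, the INSIG proteins hold SCAP back, and LXR receptors switch on genes that export cholesterol. SREBF2 acts mainly on cholesterol genes and SREBF1 mainly on fatty acid genes, and plasma cells need both products to build the membranes of their secretory apparatus.

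The targeted gene was lower on all 6 NSD2 probe sets with shMMSET#2 and on 5 of 6 with shMMSET#4. The brightest of them read 10299.8, 7032 and 7476 on the shLuc, shMMSET#2 and shMMSET#4 arrays, 1.46-fold and 1.38-fold lower. The probe set with the largest deficit under shMMSET#2 was 6.45-fold and 1.72-fold lower, another was 5.45-fold and 3.07-fold lower, and all 6 had a higher signal under shMMSET#4 than under shMMSET#2. Of 7 plasma cell markers, all were above the floor of 41.2, the signal to which lower values were raised, on every array. Their summed signal was 56433 under shLuc, 29249 under shMMSET#2 and 54421 under shMMSET#4. CD38 was dim, at 94.4, 129 and 151. Summed signals of other lineages ranged over the arrays from 98.0 to 197 for 2 B cell markers, from 129 to 219 for 3 T cell markers, from 28.4 to 174 for 3 monocyte markers and from 193 to 365 for 3 fibroblast markers. CD14, CD2, PDGFRB and KRT19 were at the floor on every array, whereas the epithelial marker EPCAM was bright at 8099, 4391 and 10651. The shLuc array had a higher median signal (77.4, against 62.0 and 59.5) and a larger excess of the 3' over the 5' ACTB control probe set (1.70 on the log2 scale, against 1.14 and 1.14). The part of these differences in the lipid gene ratios was not tested. In bulk RNA, fewer cells of a type and less RNA per cell cannot be told apart.

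At the main settings, described below, counts of lipid genes past 1.5-fold relative to shLuc were near or below the shares over all tested genes. With shMMSET#2, 3 of 30 were at least 1.5-fold lower than with shLuc, against 22.5% of all tested genes, and 2 of 30 were at least 1.5-fold higher, against 16.2%. With shMMSET#4, 7 of 30 were lower, against 20.6%, and 5 of 30 were higher, against 17.3%. With both hairpins 2 were lower, SREBF2 and ABCA1, against 11.9% of all tested genes, and 2 were higher, SREBF1 and TM7SF2, against 8.6%. TM7SF2 was tested only because of its signals on the hairpin arrays, so its place among the higher genes is not independent of the filter. The median log2 ratio of the 30 genes was 0.00 with shMMSET#2 and -0.15 with shMMSET#4, beside medians of -0.04 and -0.02 over all tested genes. Scaling the arrays to the same median signal shifted all genes upward and turned the median with shMMSET#4 to 0.23, beside 0.34 over all tested genes. That scaling left 1 gene lower and made 9 higher for shMMSET#2, against 13.2% and 30.1% of all tested genes, and 3 lower and 10 higher for shMMSET#4, against 10.1% and 34.7%. Under some other settings the lower count with shMMSET#4 stood further above its share. It was 10 of 30 with the mean over all probe sets (against 16.8%) and 7 of 30 with a 60th percentile floor (12.4%). It was 7 of 27 with a 75th percentile filter (14.0%) and 7 of 19 without _x_at and _s_at probe sets (23.4%). At the main settings and past 2-fold, 2 of 30 were higher with shMMSET#2 (against 5.69%), 4 with shMMSET#4 (against 6.74%) and 2 with both (against 2.83%). The hairpin arrays gave the measure of spread used here, although true differences between the hairpins are part of it. For 95% of genes they differed by at most 1.79-fold in the brightest decile of signal and by at most 2.90-fold in the second-dimmest. Only SREBF1 and ABCA1 lay beyond the spread of their own decile with both hairpins, and MSMO1 and ELOVL6 did so with shMMSET#4 alone. The share of all tested genes beyond this spread was not counted. Past 2-fold with both hairpins, in either direction, were 3 of the 30 and 955 of the 13296 tested genes. The spread also leaves out variation of the shLuc array, which both ratios share.

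**Figure D1:**
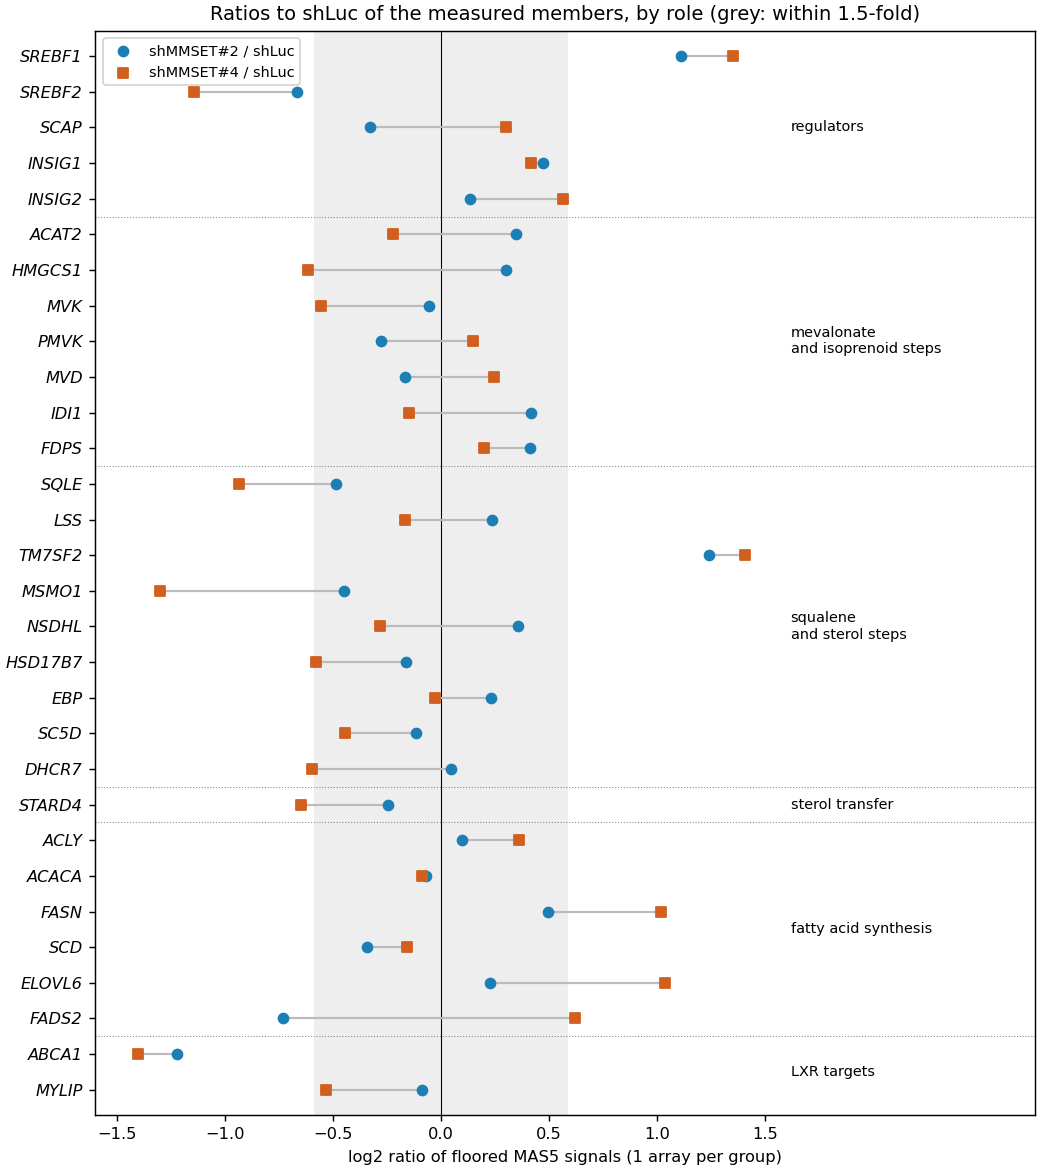
Log2 ratio to shLuc (horizontal axis) of the 30 measured genes (rows, ordered by role), with circles for shMMSET#2, squares for shMMSET#4 and grey for ratios within 1.5-fold; each point is 1 array against 1 control array. SREBF1 and TM7SF2 lie right of the grey band with both hairpins, SREBF2 and ABCA1 lie left of it, and most sterol enzymes have their square to the left of their circle.

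The SREBP genes lay on opposite sides of the control. The SREBF1 signal was 1109 under shLuc, 2395 under shMMSET#2 and 2834 under shMMSET#4, that is 2.16-fold and 2.56-fold higher. Both hairpin arrays lay above the control, and the spread of the SREBF1 decile was 2.11-fold. A dim SREBF1 probe set read 76.8, 103 and 214, in the same direction. SREBF2 had signals of 903 under shLuc, 569 under shMMSET#2 and 408 under shMMSET#4, or 1.59-fold and 2.21-fold lower. All 3 SREBF2 probe sets were lower with both hairpins, with log2 ratios between -1.14 and -0.67 for shMMSET#2 and between -1.14 and -0.61 for shMMSET#4. The ratios of the brightest probe set were inside the 2.31-fold spread of its decile. Scaling to the same median signal brought the ratio of the brightest probe set with shMMSET#2 from -0.67 to -0.35, which is under 1.5-fold.

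The partners of the SREBPs were within 1.5-fold of shLuc at the deposited scaling. INSIG1, itself an SREBP target and the retention protein of SCAP, had signals of 14383 under shLuc, 19961 under shMMSET#2 and 19181 under shMMSET#4. It was 1.39-fold and 1.33-fold higher, with all 3 probe sets on the higher side. Its paralog INSIG2 had signals of 549, 603 and 811, 1.10-fold and 1.48-fold higher. SCAP, the escort, read 834, 665 and 1029, so that the hairpin arrays lay on either side of the control and differed from each other by 1.55-fold. Scaling to the same median signal took these genes past 1.5-fold, with log2 ratios of 0.79 and 0.80 for INSIG1 with the respective hairpins, and with shMMSET#4 of 0.94 for INSIG2 and 0.68 for SCAP. INSIG2 also passed it with shMMSET#4 under quantile normalization, at 0.62.

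SREBF2 was also the one matched gene whose promoter window held the core of the sterol regulatory element, the SREBP binding motif, spelled TCACNCCAC. Windows from 250 bases before to 50 bases after annotated starts were found in RefSeq (GRCh38.p14) for 29 of the 33 genes, 39 windows in all, and were searched on both strands. The core was in 1 of 39 windows, against 1.13% of the windows of all genes. The CCAAT box, spelled CCAAT, was in 25 of 39 windows (64.1%), against 34.6% of all windows, and the GC box, spelled GGGCGG, was in 35 of 39 (89.7%), against 45.0%. A match describes the letters only, and several genes have more than 1 window. Below are the 200 bases before the start, 5′ to 3′ on the gene's strand, for SREBF2, which holds the core, and for the 4 genes at least 1.5-fold lower with shMMSET#4 than with shMMSET#2. Capitals mark the element core and CCAAT in either orientation (ATTGG is CCAAT on the opposite strand), and the outermost start was taken where a gene has several.

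SREBF2, chr22:41832905-41833104, plus strand: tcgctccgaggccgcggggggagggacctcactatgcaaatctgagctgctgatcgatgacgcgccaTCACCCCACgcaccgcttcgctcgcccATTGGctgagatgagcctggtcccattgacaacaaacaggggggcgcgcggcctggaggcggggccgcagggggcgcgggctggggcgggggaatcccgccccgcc
HMGCS1, chr5:43313413-43313612, minus strand: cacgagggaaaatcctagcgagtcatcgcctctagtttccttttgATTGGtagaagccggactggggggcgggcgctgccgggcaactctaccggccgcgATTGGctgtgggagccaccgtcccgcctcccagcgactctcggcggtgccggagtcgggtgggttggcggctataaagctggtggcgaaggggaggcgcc
MSMO1, chr4:165327469-165327668, plus strand: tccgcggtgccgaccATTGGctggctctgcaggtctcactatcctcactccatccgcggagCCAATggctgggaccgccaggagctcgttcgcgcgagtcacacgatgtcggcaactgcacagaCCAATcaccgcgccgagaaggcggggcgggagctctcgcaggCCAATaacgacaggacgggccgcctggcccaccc
NSDHL, chrX:152830863-152831062, plus strand: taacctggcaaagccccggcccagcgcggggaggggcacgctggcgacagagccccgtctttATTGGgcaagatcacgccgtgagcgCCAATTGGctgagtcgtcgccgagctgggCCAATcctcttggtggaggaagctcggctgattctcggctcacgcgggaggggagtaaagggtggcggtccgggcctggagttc
DHCR7, chr11:71449044-71449243, minus strand: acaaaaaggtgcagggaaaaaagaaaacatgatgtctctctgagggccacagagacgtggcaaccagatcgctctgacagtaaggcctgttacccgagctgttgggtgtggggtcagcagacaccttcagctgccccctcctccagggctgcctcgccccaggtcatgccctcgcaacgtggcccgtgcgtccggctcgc

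In SREBF2 the core began 133 bases upstream of the start and an inverted CCAAT box 106 bases upstream. The HMGCS1 stretch holds CCAAT boxes beginning 155 and 100 bases upstream, both inverted, and its other window holds none. MSMO1 has 4 CCAAT boxes within the stretch, beginning 185, 139, 76 and 34 bases upstream. In NSDHL the boxes 113 and 110 bases upstream overlap, since the run reads as CCAAT on both strands. The DHCR7 stretch, from the outermost of 2 starts, holds none of the 3 motifs, while its other window holds 2 CCAAT boxes.

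On their brightest probe sets, the enzymes of the mevalonate pathway, which builds isoprenoid units from acetyl-CoA, lay close to shLuc. Sizes were at most 1.33-fold for shMMSET#2 (IDI1) and at most 1.53-fold for shMMSET#4 (HMGCS1). The mean over probe sets gave larger deficits with shMMSET#4, with log2 ratios of -1.12 for HMGCS1, -1.16 for MVK and -0.68 for IDI1. HMGCS1, which makes hydroxymethylglutaryl-CoA, had signals of 3654 under shLuc, 4498 under shMMSET#2 and 2383 under shMMSET#4. It was thus 1.23-fold above the control on one hairpin array and 1.53-fold below it on the other. A dimmer HMGCS1 probe set read 486, 515 and 158. The shMMSET#4 array was the lowest on both. ACAT2, the thiolase that starts the pathway, read 2558, 3259.6 and 2191, and IDI1, the isomerase of the isoprenoid units, read 9177, 12240.4 and 8292.5, again highest with shMMSET#2 and lowest with shMMSET#4. A pair of dimmer IDI1 probe sets were instead lower with both hairpins, with log2 ratios of -1.39 and -1.22 for shMMSET#2 and of -1.53 and -0.88 for shMMSET#4. FDPS, the farnesyl diphosphate synthase that bone-protecting bisphosphonates inhibit, had signals of 12672, 16846 and 14545.

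The kinases of the pathway did not share one order. MVK, mevalonate kinase, read 752 under shLuc, 723 under shMMSET#2 and 512 under shMMSET#4, and all 4 of its probe sets were lower with both hairpins. On a dimmer MVK probe set the signals were 344, 194 and 90.9. PMVK, which adds the next phosphate, had signals of 4417, 3642 and 4904.5, and MVD, the decarboxylase, was dim at 106, 94.98 and 126.

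Among the 9 measured enzymes from squalene to cholesterol, the shMMSET#4 array had 3 at least 1.5-fold lower and 1 higher, while the shMMSET#2 array had none lower and 1 higher. The shares over all tested genes were 20.6% and 17.3% for shMMSET#4 and 22.5% and 16.2% for shMMSET#2. MSMO1, the sterol methyl oxidase, had the lowest ratio of them with shMMSET#4, with signals of 21688 under shLuc, 15904 under shMMSET#2 and 8804 under shMMSET#4, 1.36-fold and 2.46-fold lower. The latter is beyond the 1.79-fold spread of its decile. SQLE, squalene epoxidase, read 5166, 3684 and 2703, or 1.40-fold and 1.91-fold lower, and all 4 SQLE probe sets were lowest with shMMSET#4. SQLE was inside its decile's spread of 1.97-fold. DHCR7, which reduces the double bond of the last precursor of cholesterol, had signals of 748, 773 and 495, 1.03-fold above the control on the shMMSET#2 array and 1.51-fold below it on the shMMSET#4 array. Scaling to the same median signal brought SQLE with shMMSET#4 to a log2 ratio of -0.55, DHCR7 to -0.21 and HMGCS1 to -0.24, all under 1.5-fold.

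**Figure D2:**
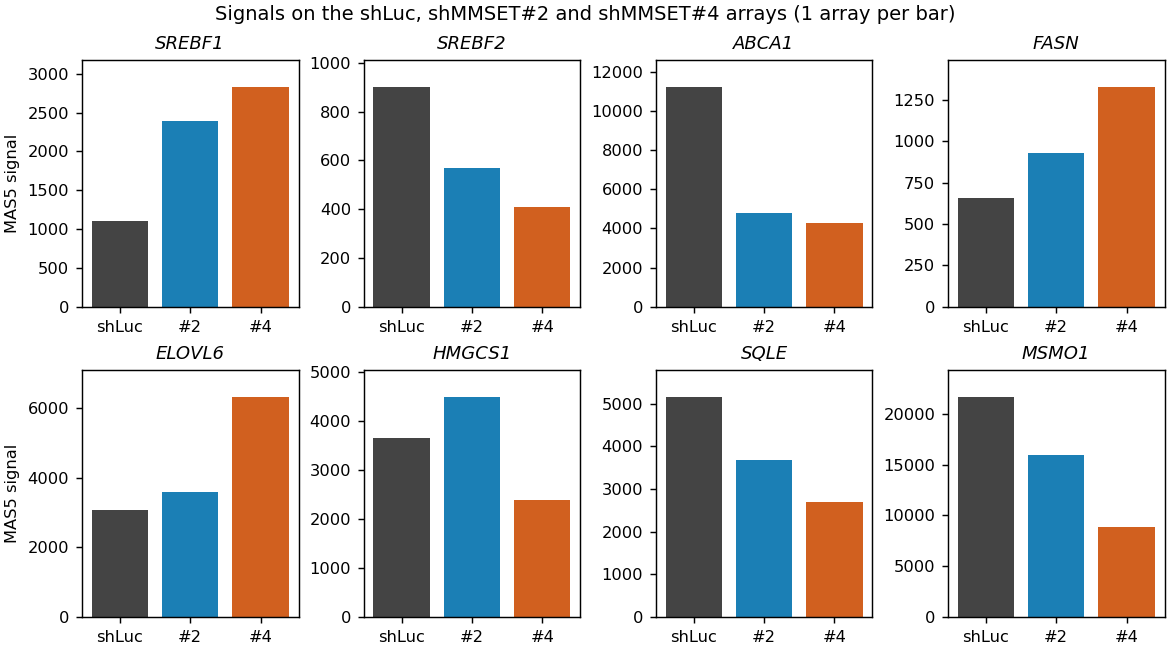
MAS5 signal (vertical axis, linear, from 0, with its own scale in each panel) of 8 genes on the shLuc, shMMSET#2 and shMMSET#4 arrays, 1 array per bar. SREBF1 is higher and SREBF2 and ABCA1 are lower with both hairpins, FASN and ELOVL6 are highest with shMMSET#4, and HMGCS1, SQLE and MSMO1 are lowest with it.

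On their brightest probe sets, the other sterol enzymes except TM7SF2 were within 1.5-fold of the control. LSS, which closes the ring system of lanosterol, read 3095, 3648 and 2761. NSDHL and HSD17B7, which remove the methyl groups together with MSMO1, read 2561, 3284 and 2109.6 and 3397, 3034 and 2274. EBP, the sterol isomerase, read 6274, 7369.8 and 6163, and SC5D, the desaturase, 1572, 1449 and 1153. Under shMMSET#4 the other 3 EBP probe sets lay 1.46-fold, 1.70-fold and 2.29-fold below shLuc, and the mean over EBP probe sets gave a log2 ratio of -0.63. In this set all but SC5D and HSD17B7 were highest with shMMSET#2, and all 5 were lowest with shMMSET#4. TM7SF2, a sterol reductase, was the exception, with signals of 50.8 under shLuc, 120.1 under shMMSET#2 and 135 under shMMSET#4. Its ratios of 2.37-fold and 2.66-fold start from a control signal close to the floor of 41.2, lie within a spread of 2.90-fold, and shrink to log2 ratios of 0.03 and 0.20 with a floor at the 60th percentile. STARD4, which carries sterols between membranes, read 1049, 885 and 669, 1.19-fold and 1.57-fold lower, and the latter came to a log2 ratio of -0.27 after scaling to the same median signal.

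The hairpins can be compared directly, without the shLuc array. Of the 16 measured mevalonate and sterol enzymes, 13 had a lower signal with shMMSET#4 than with shMMSET#2, whereas 48.3% of all tested genes did. This count was added after the data were seen. The median log2 ratio of shMMSET#4 to shMMSET#2 of the 16 enzymes was -0.43, beside 0.00 over all tested genes. The count was also 13 under both other scalings. Counted over probe sets, which share the RNA of their gene, 28 of 34 were lower and 4 were higher. The share over all probe sets of the arrays was not counted. Past 1.5-fold, 4 of the 30 listed genes were lower with shMMSET#4 (HMGCS1 by 1.89-fold, MSMO1 by 1.81-fold, DHCR7 and NSDHL by 1.56-fold each), against 13.6% of all tested genes, and 3 were higher (FADS2, ELOVL6 and SCAP), against 16.9%. Since FADS2 was tested only through the shMMSET#4 array, its place among these 3 is not independent of the filter. All 4 lower genes were among the 16 enzymes, and none of the 3 higher genes was. When each gene took the mean of its probe sets, 8 of the 30 were lower, against 9.92% of all tested genes. Relative to shLuc, 7 of the 16 were below the control with shMMSET#2 and 12 with shMMSET#4. Over the 13296 tested genes, 6986 and 6867 were below it. The counts of the 16 became 2 and 7 once the arrays were scaled to the same median signal. That scaling raised the median log2 ratios over all tested genes to 0.25 and 0.34.

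**Figure D3:**
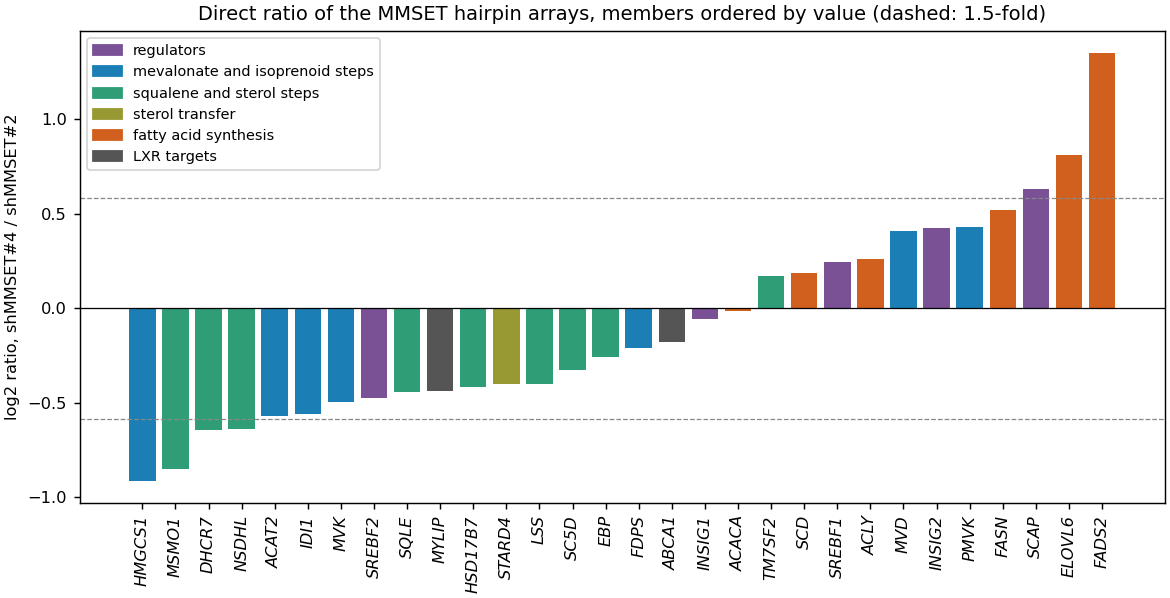
Log2 ratio of shMMSET#4 to shMMSET#2 (vertical axis) for the 30 genes, ordered by value and coloured by role, with dashed lines at 1.5-fold; each bar compares 1 array with 1 array. Of the mevalonate and sterol enzymes, 13 of 16 have bars below 0 and the exceptions are TM7SF2, MVD and PMVK, while the fatty acid genes other than ACACA have bars above 0.

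Of the 6 measured fatty acid genes, 5 had a higher signal with shMMSET#4 than with shMMSET#2, as did 6649 of the 13296 tested genes. For SCD the difference was 1.14-fold. The FADS2 signal with shMMSET#2 was below the floor, and FADS2 was tested only through the shMMSET#4 array. FASN, the synthase that makes palmitate, had signals of 656 under shLuc, 926 under shMMSET#2 and 1329 under shMMSET#4, 1.41-fold and 2.03-fold higher. A dim FASN probe set read 7.31, below the floor, 52.0 and 54.1. ELOVL6, which elongates palmitate, read 3078, 3600.2 and 6329, or 1.17-fold and 2.06-fold higher, beyond its spread of 1.97-fold with shMMSET#4. The next ELOVL6 probe set was 1.08-fold and 1.79-fold higher, and the dimmest of the 3 was 1.48-fold and 1.10-fold higher, so the size of the difference varied between probe sets. Upstream of FASN, ACLY, which supplies cytosolic acetyl-CoA, read 9492, 10153 and 12182, with 3 of 3 probe sets above shLuc with shMMSET#4. ACACA, which makes malonyl-CoA, read 1272, 1211 and 1198, within 1.06-fold of the control. A dimmer ACACA probe set read 495, 454 and 314, which is 1.58-fold lower with shMMSET#4.

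Relative to shLuc, the desaturases were less uniform. SCD, which makes oleate, read 15862 under shLuc, 12524 under shMMSET#2 and 14240.3 under shMMSET#4, and its 4 probe sets were split in sign with each hairpin. FADS2, the desaturase that opens the synthesis of polyunsaturated fatty acids, was dim at 68.4, 4.34 and 105. It was at least 1.66-fold lower with shMMSET#2, whose signal was below the floor, and 1.54-fold higher with shMMSET#4. Another FADS2 probe set, the one left when _x_at and _s_at probe sets were dropped, read 52.0 under shLuc and was below the floor with both hairpins, a log2 ratio of -0.34 that is a bound. With shMMSET#4, 3 of the 6 fatty acid genes (FASN, ELOVL6 and FADS2) were at least 1.5-fold higher and none was lower. The shares of all tested genes were 17.3% and 20.6%. FADS2 was tested only because of its signal on the shMMSET#4 array, so its place in this count is not independent of the filter. Raising the floor to the 60th percentile brought its log2 ratio for shMMSET#4 to 0. With shMMSET#2 none of the 6 was higher and 1, FADS2, was lower, beside 16.2% and 22.5% of all tested genes.

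ABCA1, the LXR target that loads cholesterol onto apolipoprotein particles, was the lowest of the bright genes. Its signal was 11235 under shLuc, 4808 under shMMSET#2 and 4254 under shMMSET#4, that is 2.34-fold and 2.64-fold lower, beyond the 1.79-fold spread of its decile. The next brightest ABCA1 probe sets gave 2.15-fold and 2.70-fold lower, and 2.65-fold and 2.06-fold lower, and the dimmest, near the floor, read 43.3, 26.0 and 64.5. ABCA1 stayed at least 1.5-fold lower with both hairpins under every alternative that was run. Only the other scalings and the mean over probe sets changed its ratios. Its log2 ratios were -0.90 and -1.02 after scaling to the same median signal, and -0.95 and -0.83 for the mean. MYLIP, an LXR target that marks lipoprotein receptors for degradation, read 2692, 2529.9 and 1864, 1.06-fold and 1.44-fold lower. Its probe sets disagreed, from 1.46-fold lower to 1.87-fold higher with shMMSET#2.

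**Figure D4:**
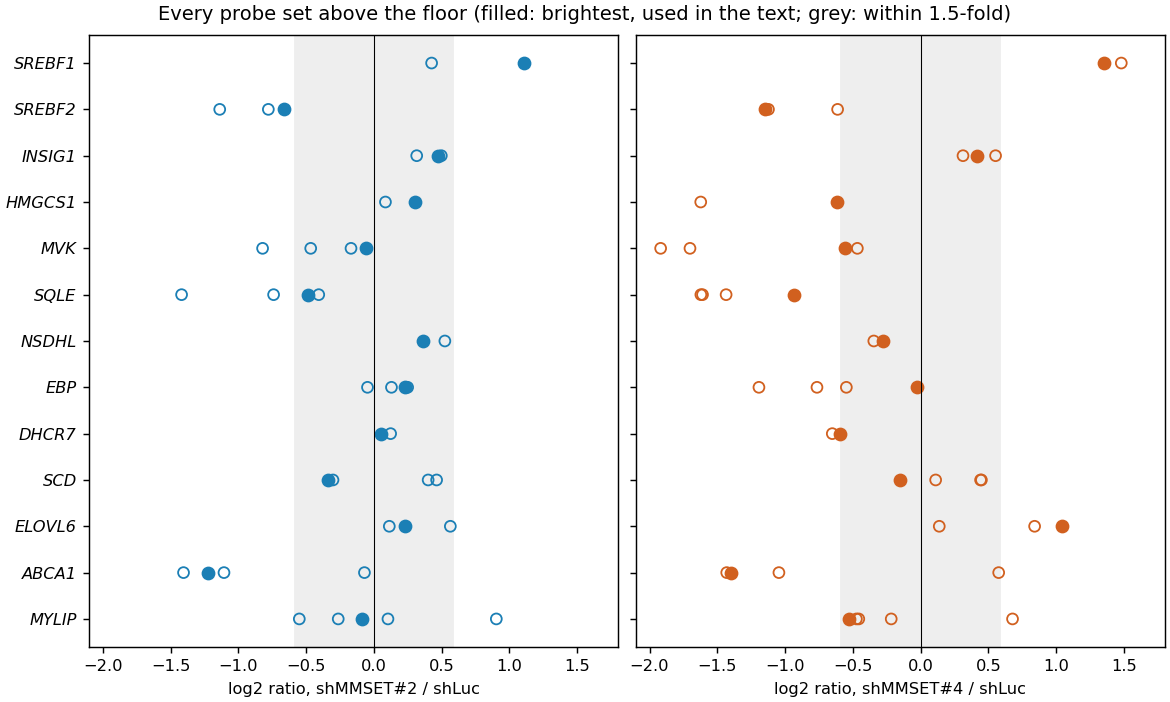
Log2 ratio to shLuc (horizontal axis) of every probe set above the floor on at least 1 array for 13 genes, in the left panel for shMMSET#2 and in the right for shMMSET#4, with the brightest probe set filled and grey for ratios within 1.5-fold. The SREBF1, SREBF2, INSIG1 and SQLE probe sets of a gene share a side with both hairpins, those of HMGCS1, NSDHL and DHCR7 change side between the panels, and those of SCD and MYLIP are split.

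Of 55 further genes of these pathways, 47 had a value and all 47 were tested. With both hairpins 7 were at least 1.5-fold higher than with shLuc and 3 were lower, beside the 8.6% and 11.9% of all tested genes given above. The higher genes included SOAT1, which esterifies cholesterol for storage (signals 958 under shLuc, 1776 under shMMSET#2 and 1883 under shMMSET#4), and NPC2, which moves cholesterol out of lysosomes (3657, 7787 and 6328). ME1, the malic enzyme that supplies NADPH for fatty acid synthesis, read 1213, 2870 and 2247, and SLC25A1, the mitochondrial citrate carrier, 234, 428 and 538. ERLIN1, part of a sterol-sensing complex of the endoplasmic reticulum, was 1.87-fold and 2.09-fold higher, PDSS1, of coenzyme Q synthesis, 1.53-fold and 1.61-fold, and NR1H3, the gene of an LXR receptor, read a dim 49.6, 120.2 and 75.9. NR1H3 was tested only because of its signals on the hairpin arrays, so its place among the 7 is not independent of the filter. The lower genes were VLDLR, a lipoprotein receptor (229, 46.8 and 91.9), FNTB, a farnesyltransferase subunit (2.29-fold and 1.74-fold), and ACACB, the mitochondrial partner of ACACA (1.76-fold and 1.93-fold). SOAT1 and ME1 each had 1 further probe set on the same side past 1.5-fold and 1 that was not. The second probe set of PDSS1 had log2 ratios of -0.09 and -1.23, and that of ERLIN1 had -0.01 and -0.08.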

How the data were processed

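Total RNA of 3 samples was measured on Affymetrix arrays. The deposited intensities are linear MAS5 signals. MAS5 is named by the submitters' processing notes, and GeneSpring by the design text. The 2% trimmed mean was 500.1 on each array, so the authors had already scaled the deposited intensities. Their versions and settings are not given in the sources used here. Although the design text names an HG-U133 A array, the identifiers were those of the larger HG-U133 Plus 2.0 platform, whose annotation named the probe sets, with symbols updated by Entrez identifier.

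From these values, signals were raised to a floor, the 40th percentile of all signals (41.2), and log2-transformed, with no rescaling. Each gene took its brightest probe set. Genes whose signal on 1 or more arrays exceeded the median of that array were tested, and a size of 1.5-fold stood in for a call. Where 1 side of a ratio is at the floor, the ratio is a bound. The spread was the 95th percentile of the difference between the hairpin arrays per decile of mean signal. The genes named were every listed gene, NSD2 and the further pathway genes past 1.5-fold with both hairpins. The members and lists were chosen with earlier results of these data known. The steps were tested on simulated data for both hairpins against shLuc, with noise of SD 0.2 on the log2 scale. Of 12299 simulated tested genes, 100% of those set 3-fold lower and 100% of those set 3-fold higher were recovered. These changes were set only in genes bright on every array. The real hairpin arrays differed more, by up to 1.25 on the log2 scale for 95% of tested genes. The recovery therefore does not cover dim genes, smaller changes or a spread of that size. The small number of arrays limits the precision. Promoter windows came from RefSeq (GRCh38.p14). Python 3.11.15, numpy 2.4.6, pandas 2.3.3 and scipy 1.17.1 were used.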

Additional observations from a re-analysis of the deposited data

Results flagged for a closer look

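FADS2 had a log2 ratio to shLuc of -0.73 with shMMSET#2 and 0.62 with shMMSET#4, so that the hairpins lay on opposite sides of the control, each past 1.5-fold. The first of these is a bound, because the shMMSET#2 signal of 4.34 is below the floor. Among the further pathway genes, ERLIN2, part of the same endoplasmic reticulum complex as ERLIN1, had log2 ratios of 0.66 and -0.68, and a dimmer ERLIN2 probe set gave 0.85 and -0.73. The dimmest ERLIN2 probe set, at 39.7 on the shLuc array and so below the floor there, was higher with both, at 0.74 and 0.75. FADS3, a relative of FADS2, had log2 ratios of -0.74 and 0.67, while another FADS3 probe set, at 4.24 on the shLuc array and so below the floor there, was higher with both. None of these differences between hairpins was tested, since each group held 1 array.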

How the results depend on the processing

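No paired analysis was possible because each group held 1 array, and for the same reason no array could be left out. Counts at least 1.5-fold lower are given first, then higher, each with the share of all tested genes in parentheses. Scaling to the same median signal gave 1 and 9 genes with shMMSET#2 (13.2% and 30.1%), 3 and 10 with shMMSET#4 (10.1% and 34.7%), 1 and 4 with both hairpins (5.28% and 19.7%), and 2 lower in shMMSET#4 against shMMSET#2 (11.8%). It moved the median log2 ratio of the members to 0.32 with shMMSET#2 and turned it to 0.23 with shMMSET#4. The median over all tested genes became 0.25 and 0.34. Higher counts with shMMSET#2, shMMSET#4 and both hairpins were 1, 3 and 1 under a 60th percentile floor (11.9%, 12.5% and 6.69%), 1, 3 and 1 of 27 genes under a 75th percentile filter (17.1%, 17.1% and 10.0%), and 1, 2 and 1 when _x_at and _s_at probe sets were dropped (16.1%, 16.2% and 8.1%). The last setting keeps 19 of the 30 genes, moved the median with shMMSET#4 to -0.47 and turned FADS2 with shMMSET#4 to -0.34, and leaves IDI1 a dim probe set that gave -1.39 with shMMSET#2. With the mean over all probe sets, 8 genes were lower with shMMSET#4 than with shMMSET#2 (9.92%), and 10 were lower with shMMSET#4 than with shLuc (16.8%). A threshold of 2-fold gave 1, 3 and 1 lower genes with shMMSET#2, shMMSET#4 and both (10.7%, 8.95% and 4.35%), 2, 4 and 2 higher (5.69%, 6.74% and 2.83%), and 0 lower and 1 higher between the hairpins (3.72% and 6.60%). The 13 of 16 enzymes lower with shMMSET#4 than with shMMSET#2, an addition made after the data were seen, numbered 13 of 16 under every alternative that was run, except 13 of 14 with the 75th percentile filter and 9 of 9 with _x_at and _s_at probe sets dropped. Of 462 values of single genes under the alternatives, 426 stayed on the same side of 1.5-fold, 19 passed it, 15 fell under it, 1 (IDI1) moved and 1 (FADS2) reversed. The 426 include 60 values for each change of the filter, which could not alter the value of a single gene. They also include 60 values without a floor, where only FADS2 could change. Dim signals limit TM7SF2, FADS2 and MVD.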

Other observations

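A few further genes outside the naming rule were chosen after their values were seen. LRP8, a lipoprotein receptor, read 584 under shLuc, 769 under shMMSET#2 and 1589 under shMMSET#4, and all 3 of its probe sets were highest with shMMSET#4. ABCG1, an LXR target that exports sterols like ABCA1, was on the other side of the control on its brightest probe set, at 1411, 1988 and 2558, and on a dimmer one at 293, 377 and 560. ABCG1 also had a pair of probe sets that were lower with both hairpins (723, 282 and 342, and 693, 453 and 428), so its direction depends on the probe set. The log2 ratios of ABCA1 with both hairpins were below 0 on the 3 brightest of its 4 probe sets.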
